A study of Mus musculus with 10 samples.

Results

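The genes that carry glucose to lactate and the genes that answer to hypoxia-inducible factor (HIF) were described in natural killer cells (NKC) cultured from the spleen of wild-type (WT) mice and of mice without the transcription factor Runx3 (KO). 37 genes were listed by function: 23 transporters and enzymes on the way from glucose to lactate, and 14 other genes of the HIF pathway. The list was made with earlier results of these data known. 34 of them were the single gene of a probe set on the array, of 18194 genes named there, and 33 were bright enough to be tested, of 9391 genes tested. Of the listed genes, *Gpi1*, *Eno1* and *Bnip3l* had no probe set of their own, and *Ldhb* lay below log2 5 on all arrays.

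RNA was measured on 10 Affymetrix mouse arrays, each of NKC from the spleen of its own ICR mouse aged 6 weeks. The 4 groups were WT (Runx3 +/+) and KO (Runx3 -/-) NKC kept for 7 days with human IL-2 at 1000 u/ml (3 arrays each), and WT and KO NKC kept for 7 days with mouse IL-15 (2 arrays each). NKC were enriched by removing other cells and, per the methods of the study, sorted for the surface antigen DX5. Precision is limited by the small number of arrays.

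Hypoxia-inducible factor joins an oxygen-regulated alpha subunit, such as *Hif1a*, to the constant subunit *Arnt*. Prolyl hydroxylases of the *Egln* family mark the alpha subunit for destruction while oxygen is present, and once stable it binds a short core in DNA and raises genes of glycolysis, vessel growth, collagen modification and mitophagy. Activated lymphocytes also raise glycolysis in ample oxygen, and in NKC the cytokines IL-2 and IL-15 drive growth together with glucose uptake.

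Values are the deposited log2 signals, and differences are KO minus WT on that scale unless stated. WT and KO arrays carry numbers, and differences between the numbered pairs had been removed before deposit: the WT and KO values of a pair add up to the same sum in every pair of a cytokine, to within 0.00014. WT and KO arrays of a pair therefore mirror each other around the mean of their cytokine, and only the difference within a pair is free to vary. Within a cytokine, KO arrays then lie wholly below WT arrays exactly where the difference is below 0 in every pair. A lack of overlap is thus no evidence beyond the sign of the pair differences. The KO effect was accordingly fitted with the pair as a block. A gene was called, and is said to have risen or fallen, at a Benjamini-Hochberg adjusted p under 0.05 over all 9391 genes (limma) together with a change of at least 1.5-fold. Errors of differences are SD over pairs (3 in IL-2, 2 in IL-15), and where a group mean lay below log2 5 the fold is a lower limit taken against log2 5.

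Some facts of the whole series bear on these genes. Markers of NKC had a mean log2 signal of 11.87 to 12.53 on every array, with 10 of 12 listed markers at log2 5 or more, while *Itga2*, which encodes the DX5 antigen, was below log2 5 on all arrays. In KO arrays in IL-2, *Ncr1* and *Tbx21* were 4.33-fold and 2.67-fold higher and *Prf1* 3.32-fold lower (limma adjusted p = 0.017, 0.026 and 0.0217). The other tested NKC markers were not called there. Macrophage and dendritic cell markers, of which 7 of 8 reached log2 5 somewhere, had means of 4.50 to 6.24 in WT and 5.45 to 7.20 in KO arrays in IL-2, and of 3.99 to 4.96 and 5.19 to 6.16 in IL-15. The list mean per array was 3.96 to 4.89 for T cell markers (3 of 8 reaching log2 5), 2.85 to 3.12 for granulocyte and mast cell markers (1 of 8), and 1.98 to 2.08 for erythroid markers (0 of 5). The 3 T cell markers *Cd3d*, *Cd3e* and *Cd3g* reached log2 5 on all 10 arrays, with group means of 5.43 to 10.26. B cell markers had means of 3.85 to 3.94 in WT and 4.31 to 4.40 in KO arrays in IL-2, and of 4.01 to 4.14 and 4.27 to 4.41 in IL-15, and the 1 of 6 that reached log2 5, *Ighm*, was 4.79-fold higher in KO arrays in IL-2 (adjusted p = 0.0101). The gap between the 3' and 5' probe sets of *Gapdh* was 0.86 to 1.09 in WT and 1.27 to 1.51 in KO arrays in IL-2, and 0.14 to 0.96 and 1.72 to 2.55 in IL-15, whereas that of *Actb* stayed between 1.47 and 1.89 on all arrays. These values move with genotype, and their part in the results was not tested. The probe sets of *Runx3* had means of 11.65 (WT) and 11.07 (KO) in IL-2 and of 12.48 (WT) and 11.38 (KO) in IL-15, and since their place relative to the deleted sequence is not given here they do not check the labels.

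The promoters of the genes were searched for the letters of the short core that HIF binds. Windows from 250 bases before to 50 bases after the start of transcription (RefSeq, GRCm38.p6) were at hand for 34 of the 37 genes. The HIF core was spelled ACGTG or, with the other common first base, GCGTG, and searched on both strands. It was present in a window of 31 of these 34 genes (91.2%) and of 69.9% of the 7718 tested genes with a window. Counted by window, it was in 40 of 52 windows of the listed genes (76.9%), 63.7% of the 9882 windows of tested genes and 43.8% of all 32851 windows. A gene with more windows has more room for a match. The form ACGTG was present for 24 of 34 (70.6%), against 30.8% of tested genes. Of the 6 called genes with the lowest differences of KO from WT in IL-2 as deposited, some of which are limits, the 4 with a single start site are printed. They are followed by *Egln1*, the sister gene of *Egln3* that was not called, and by *Hif1a* itself. Capitals mark the HIF core on the printed or on the opposite strand.
Egln3, chr12:54203825-54204124, minus strand: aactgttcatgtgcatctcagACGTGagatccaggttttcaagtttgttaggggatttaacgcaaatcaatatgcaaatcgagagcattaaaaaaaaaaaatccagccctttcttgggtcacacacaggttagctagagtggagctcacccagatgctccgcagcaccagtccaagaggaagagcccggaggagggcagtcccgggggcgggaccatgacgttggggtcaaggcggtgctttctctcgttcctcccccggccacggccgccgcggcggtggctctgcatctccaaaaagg
Bnip3, chr7:138909457-138909756, minus strand: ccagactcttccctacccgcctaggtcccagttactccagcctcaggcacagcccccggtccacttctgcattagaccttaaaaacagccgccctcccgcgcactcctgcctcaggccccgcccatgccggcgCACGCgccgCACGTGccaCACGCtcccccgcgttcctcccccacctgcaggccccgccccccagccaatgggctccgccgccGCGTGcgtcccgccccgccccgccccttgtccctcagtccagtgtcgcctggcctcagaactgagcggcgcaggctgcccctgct
Slc16a3, chr11:120948817-120949116, plus strand: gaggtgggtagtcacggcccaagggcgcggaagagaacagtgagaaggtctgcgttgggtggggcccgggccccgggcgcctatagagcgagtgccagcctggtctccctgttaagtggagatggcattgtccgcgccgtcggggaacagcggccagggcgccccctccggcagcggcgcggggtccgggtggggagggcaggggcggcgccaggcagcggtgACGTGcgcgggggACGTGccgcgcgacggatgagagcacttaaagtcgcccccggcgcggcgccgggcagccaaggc
P4ha1, chr10:59323046-59323345, plus strand: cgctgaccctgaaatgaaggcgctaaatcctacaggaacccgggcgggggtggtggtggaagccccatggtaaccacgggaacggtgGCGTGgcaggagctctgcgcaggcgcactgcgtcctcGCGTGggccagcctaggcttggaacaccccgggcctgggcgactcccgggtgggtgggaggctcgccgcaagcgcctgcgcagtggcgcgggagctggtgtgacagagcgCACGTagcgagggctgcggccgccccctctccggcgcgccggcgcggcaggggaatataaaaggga
Egln1, chr8:124949205-124949504, minus strand: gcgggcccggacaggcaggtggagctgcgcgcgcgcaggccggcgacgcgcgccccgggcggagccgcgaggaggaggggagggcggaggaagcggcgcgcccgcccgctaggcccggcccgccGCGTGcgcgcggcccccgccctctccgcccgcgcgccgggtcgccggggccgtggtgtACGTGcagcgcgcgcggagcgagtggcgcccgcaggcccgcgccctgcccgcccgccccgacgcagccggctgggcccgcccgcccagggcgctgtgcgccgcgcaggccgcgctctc
Hif1a, chr12:73907617-73907916, plus strand: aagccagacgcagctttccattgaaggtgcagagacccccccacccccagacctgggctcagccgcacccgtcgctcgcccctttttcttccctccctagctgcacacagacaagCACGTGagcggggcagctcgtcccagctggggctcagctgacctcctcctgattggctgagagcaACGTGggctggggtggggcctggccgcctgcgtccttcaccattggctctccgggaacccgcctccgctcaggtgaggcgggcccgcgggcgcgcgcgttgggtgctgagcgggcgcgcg
Each of the 6 windows holds the core: *Bnip3* has 5 matches, *P4ha1* and *Hif1a* 3 each, *Slc16a3* and *Egln1* 2 each, and *Egln3* 1, where the palindrome CACGTG of *Bnip3* and *Hif1a* counts once on each strand. Among the genes that fell, 15 of 16 with a window held the core, and among the tested genes that were not called 14 of 15 did. The RUNX motif TGTGGT, with C also allowed at the third and at the last base and searched on both strands, was found in a window of 13 of 16 genes that fell (81.2%), 7 of 15 that were not called (46.7%) and 54.7% of tested genes. With T alone allowed at the last base these shares were 37.5%, 13.3% and 25.1%. A match of letters is not a binding site, and these shares are descriptions without a test.

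The comparison of KO with WT in IL-2 asked which of the genes depend on Runx3 in activated NKC. 18 of 33 tested genes fell in KO NKC and 0 rose, where 9.17% of all tested genes fell and 10.5% rose. The 18 were 9 of 20 genes from glucose to lactate and 9 of 13 other HIF pathway genes. *Slc16a3*, *Vegfa* and *Eno2* reached log2 5 in WT arrays alone, and *P4ha2* in WT arrays and in KO array 2 in IL-15. Each of these genes, *P4ha2* included, could be tested only because WT was high, so their falls are no independent support. Values below log2 5 are limits, and a group mean lay there for 2 of the 20 and 3 of the 13 genes. With such means held at log2 5, the median difference was -0.66 for the first class and -1.96 for the second, beside 0.09 for all tested genes, and with the deposited values it was -0.87 and -2.95 beside 0.11. The count of falls was 8 without WT or KO array 1 and 5 with no filter on low values. KO arrays lay wholly below WT arrays for 25 of 33 genes (75.8%, background 23.2%) and wholly above for 0 (background 31.1%). As the values of a pair mirror each other, this only restates the sign of the pair differences.

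**Figure D1:**
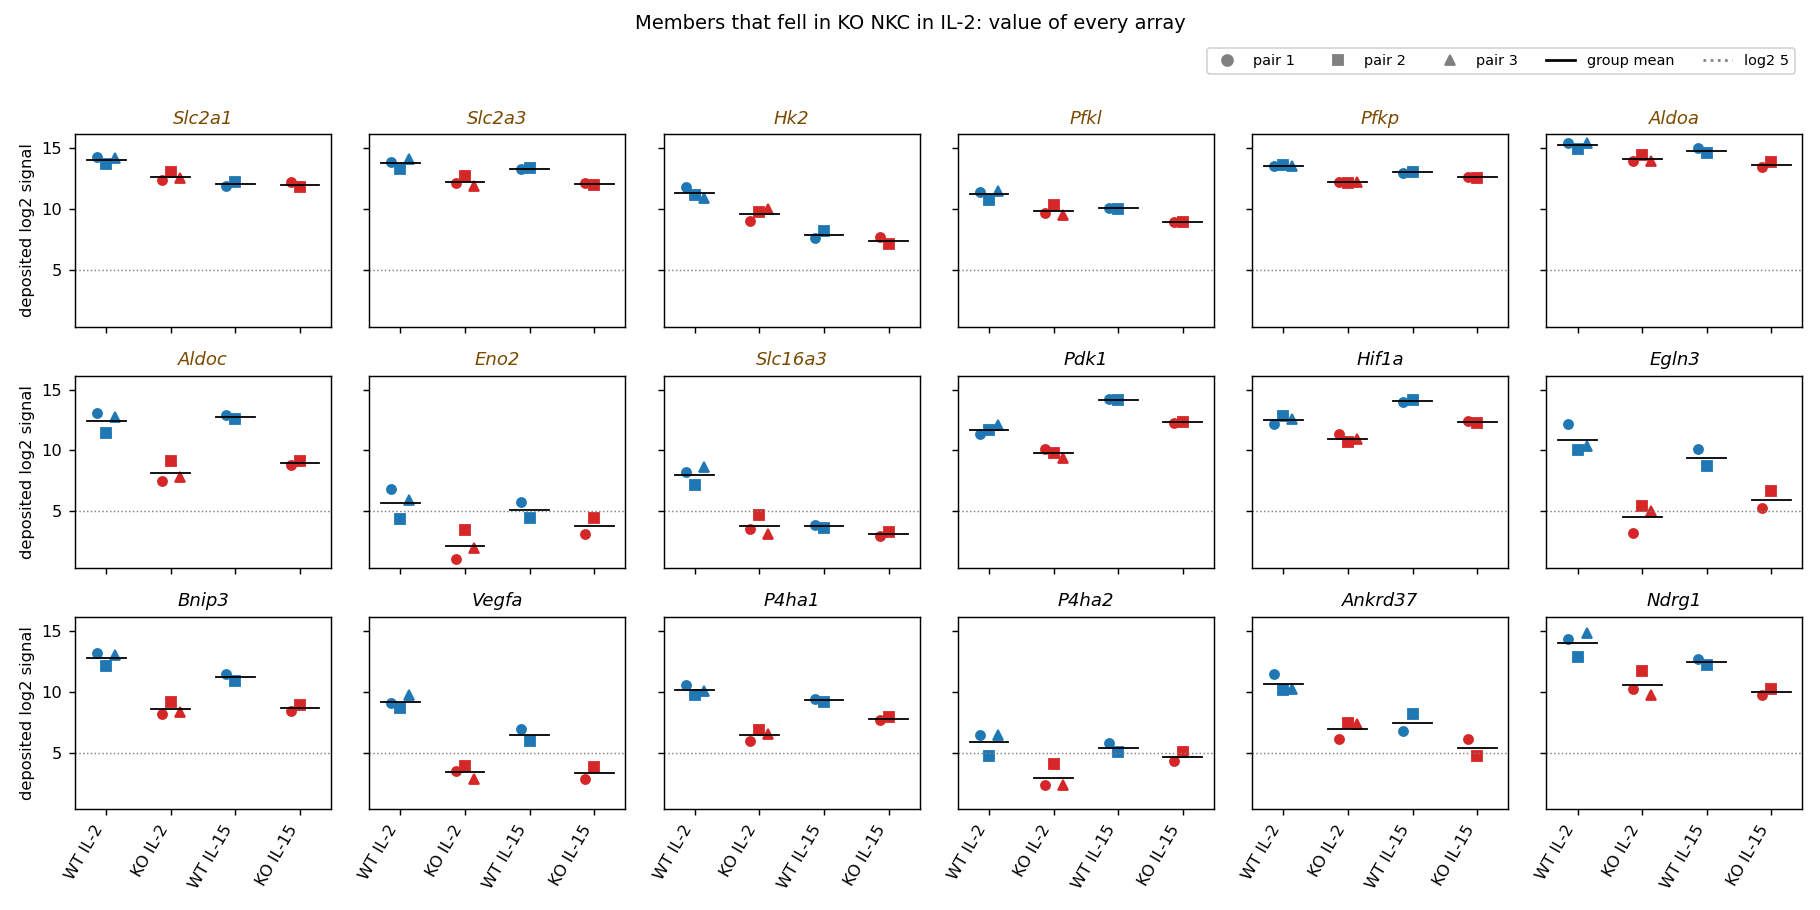
Deposited log2 signal (vertical axis) of every array for the 18 genes that fell in KO NKC in IL-2, with WT arrays in blue, KO arrays in red, marker shape for the numbered pair and bars for group means. Titles in brown name genes from glucose to lactate and titles in black other HIF pathway genes. In IL-2 the WT points lie above the KO points in every panel, and *Hif1a* and *Pdk1* are brighter in IL-15 than in IL-2.

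The glucose transporters both fell. *Slc2a1*, which encodes the ubiquitous transporter GLUT1, read 14.28, 13.70 and 14.17 in WT and 12.43, 13.01 and 12.54 in KO arrays 1, 2 and 3 in IL-2. The groups did not overlap, and the difference was -1.39 ± 0.62 (2.63-fold, adjusted p = 0.0268). *Slc2a3*, which encodes the high-affinity GLUT3, read 13.90, 13.33 and 14.08 in WT and 12.11, 12.69 and 11.94 in KO arrays, a difference of -1.53 ± 0.78 (2.88-fold, adjusted p = 0.024). For both transporters the arrays of pair 2 stood closest together. Both lost their call without an array of pair 1 or of pair 3 in IL-2.

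In the upper part of glycolysis the isoenzymes of a step did not move alike. Of the hexokinases, which trap glucose as its phosphate, *Hk2* read 11.84, 11.12 and 10.88 in WT and 9.05, 9.77 and 10.01 in KO arrays and fell by 1.67 on the log2 scale (SD 1.0, 3.19-fold, adjusted p = 0.0374). *Hk1* differed by -0.07 ± 0.35, with a 95% interval of -0.69 to 0.55. Hk2 is the inducible and Hk1 the housekeeping form. Of the phosphofructokinase subunits, the rate-setting enzyme, *Pfkp* read 13.52, 13.64 and 13.52 in WT and 12.24, 12.12 and 12.24 in KO arrays, a fall that was nearly the same in the 3 pairs (-1.36 ± 0.14, 2.57-fold, adjusted p = 0.0108). *Pfkl* read 11.39, 10.73 and 11.51 against 9.67, 10.32 and 9.54 and fell by 1.37 (SD 0.83, 2.58-fold, adjusted p = 0.0369). The muscle form *Pfkm* differed by 0.08 ± 0.17 with an interval of -0.47 to 0.64. Of the fits that left out an array, *Hk2* kept its call only without an array of pair 3 in IL-2 and *Pfkl* only without one of pair 2. *Pfkp* lost its call only without an array of pair 1 in IL-2. *Pfkfb3* and *Pfkfb4*, which regulate fructose-2,6-bisphosphate, an activator of phosphofructokinase, differed by 0.53 ± 0.50 and -0.09 ± 0.52 and were not called.

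The aldolases, which split the product of phosphofructokinase, showed the widest gap within a step. *Aldoc*, best known from brain, read 13.06, 11.42 and 12.72 in WT and 7.47, 9.11 and 7.80 in KO arrays. WT arrays were bright and KO arrays more than 2 log2 units below them in every pair, and the difference was -4.27 ± 1.73 (19.3-fold, adjusted p = 0.00603). *Aldoa*, the general form, read 15.43, 14.94 and 15.42 against 13.95, 14.44 and 13.96 and fell by 1.14 (SD 0.56, 2.21-fold, adjusted p = 0.0487), and its call was lost whichever array was left out.

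The enzymes of the lower part were bright in every group and none of the 6 general ones was called. *Gapdh*, *Pgk1*, *Pgam1*, *Tpi1*, *Pkm* and *Ldha* had group means between log2 13.25 and 15.08 in the 4 groups. Their differences in IL-2 were -0.28 ± 0.14, -0.62 ± 0.17, -0.46 ± 0.39, -0.58 ± 0.35, -0.57 ± 0.23 and -0.37 ± 0.10 in that order, below 0 in all 3 pairs, with adjusted p of 0.159 to 0.416. With mirrored pairs this also means that KO arrays lay wholly below WT arrays for each of the 6. *Gapdh* was read from control probe sets alone, and its middle and 5' probe sets gave -0.59 and -0.72.

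*Eno2*, the neuronal enolase, was dim. It read 6.83, 4.38 and 5.89 in WT and 1.05, 3.50 and 2.0 in KO arrays, so that WT arrays straddled log2 5 and KO arrays lay below it. The difference was -3.52 ± 2.47 (at least 1.63-fold, adjusted p = 0.038). The enolase *Eno1* had no probe set of its own, and *Ldhb* stayed between log2 4.11 and 4.75.

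The lactate transporters ended the path. *Slc16a3*, the exporter MCT4 of glycolytic cells, read 8.24, 7.12 and 8.66 in WT and 3.56, 4.67 and 3.14 in KO arrays, below log2 5 in all KO arrays. The difference was -4.22 ± 1.59 (at least 8.05-fold, adjusted p = 0.0055). *Slc16a1*, the widely used transporter MCT1, read 12.56, 12.54 and 12.01 against 11.06, 11.08 and 11.61, and its difference of -1.12 ± 0.62 missed the threshold (adjusted p = 0.0541).

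Among the other HIF pathway genes the alpha subunit and its regulators came first. *Hif1a* read 12.16, 12.83 and 12.55 in WT and 11.33, 10.66 and 10.94 in KO arrays in IL-2 and fell by 1.54 (SD 0.67, 2.91-fold, adjusted p = 0.0186). *Egln3*, a prolyl hydroxylase that is itself raised by HIF, read 12.18, 10.02 and 10.40 in WT and 3.24, 5.40 and 5.03 in KO arrays. It fell at least 58.4-fold (adjusted p = 0.0059), with a KO mean below log2 5. Its sister *Egln1*, the main oxygen sensor, differed by 0.19 ± 0.97 with an interval of -0.75 to 1.13, and its second probe set by -0.55.

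*Vegfa*, the vessel growth factor, fell from a clear signal to below log2 5. It read 9.04, 8.67 and 9.70 in WT and 3.52, 3.90 and 2.87 in KO arrays, a difference of -5.71 ± 1.04 (at least 17.6-fold, adjusted p = 0.00177). *Bnip3*, a mitophagy receptor, read 13.21, 12.16 and 13.00 against 8.14, 9.19 and 8.35 and fell by 4.23 (SD 1.11, 18.8-fold, adjusted p = 0.00303). In both genes the lowest WT array lay more than 2 log2 units above the highest KO array.

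The collagen prolyl hydroxylases fell together. *P4ha1* read 10.59, 9.71 and 10.04 in WT and 5.99, 6.86 and 6.54 in KO arrays, a difference of -3.65 ± 0.88 (12.6-fold, adjusted p = 0.00285). *P4ha2* was dim, with 6.46, 4.72 and 6.47 in WT and 2.36, 4.09 and 2.34 in KO arrays, and fell by 2.95 (SD 2.01, at least 1.85-fold, adjusted p = 0.0305).

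Pyruvate dehydrogenase kinases hold pyruvate back from the mitochondria, and their isoforms differed. *Pdk1*, a HIF target, read 11.38, 11.70 and 12.07 in WT and 10.10, 9.77 and 9.40 in KO arrays and fell by 1.96 (SD 0.70, 3.90-fold, adjusted p = 0.00927). *Pdk3* differed by -0.27 ± 0.33, with an interval of -0.87 to 0.33.

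Of the remaining targets, the stress-induced *Ndrg1* read 14.35, 12.86 and 14.85 in WT and 10.24, 11.73 and 9.74 in KO arrays, with a fall of -3.45 ± 2.07 (11.0-fold, adjusted p = 0.0189) that was wide in pairs 1 and 3 and narrow in pair 2. *Ankrd37* read 11.43, 10.13 and 10.27 against 6.15, 7.45 and 7.32 and fell by 3.63 (SD 1.43, 12.4-fold, adjusted p = 0.0137). The histone demethylase *Kdm3a* and the Myc antagonist *Mxi1* differed by -0.88 ± 0.87 and -0.90 ± 1.46 and were not called (adjusted p = 0.126 and 0.259).

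Where a gene that fell had more than 1 bright probe set, the probe sets ran the same way. This could be read for 10 of the 18 genes, whose 30 bright probe sets all had a negative difference in IL-2. Bright here means only that a probe set met the rule for testing a gene, so some were dim. A probe set of *Egln3* and one of *Hif1a* had means of 4.48 and 4.22 and reached the threshold on 3 and 4 arrays. Such probe sets may pass only because WT was high, which would largely fix their sign in advance. The count of 30 is therefore no independent support.

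**Figure D2:**
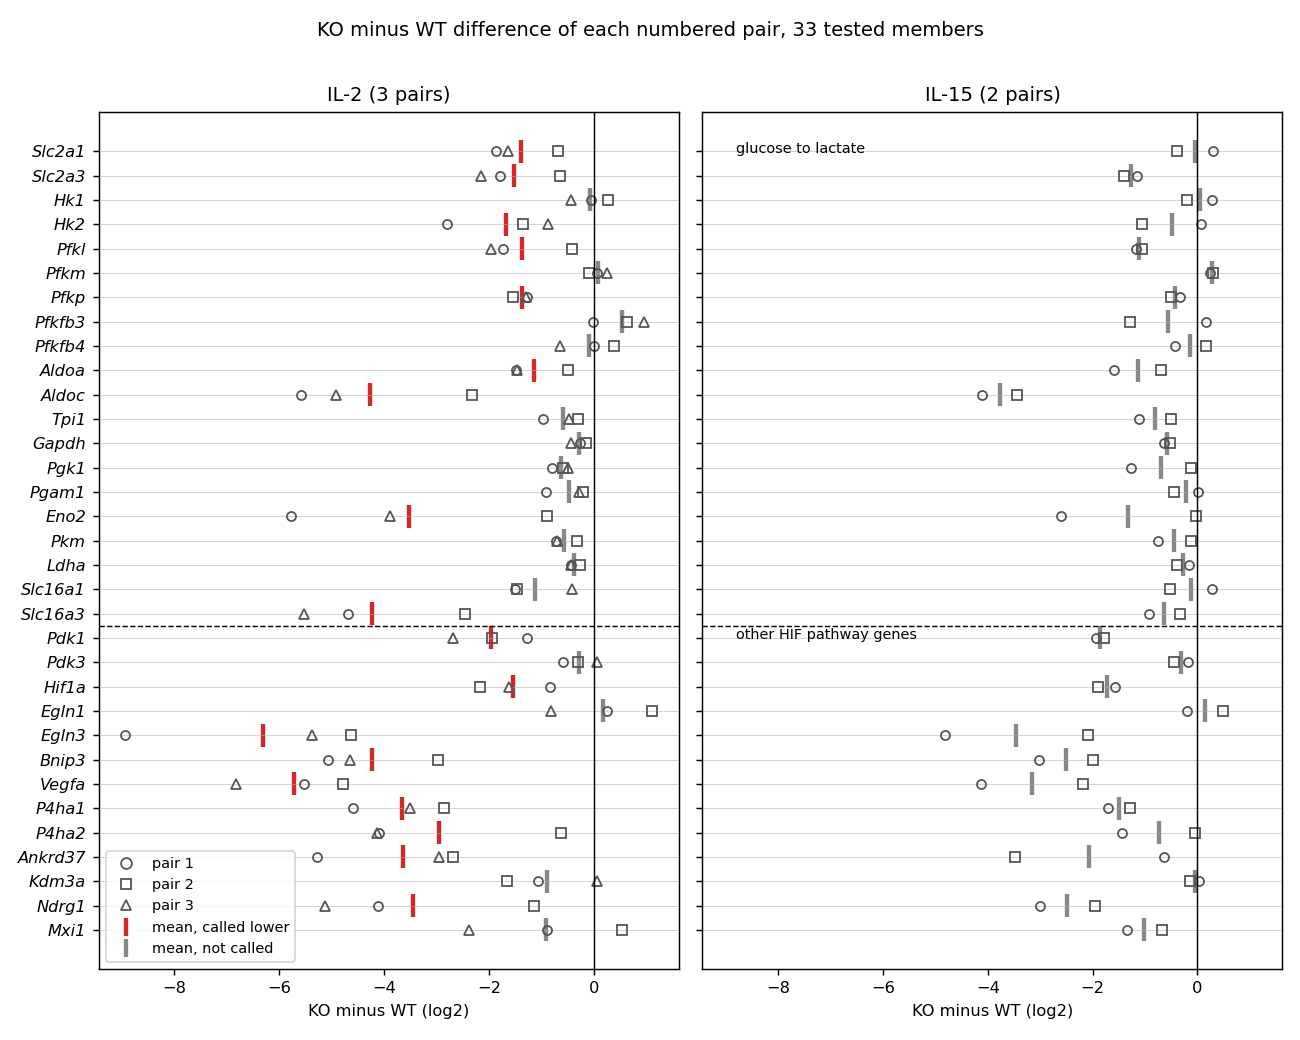
Log2 difference of KO from WT (horizontal axis) in each numbered pair in IL-2 (left, 3 pairs) and IL-15 (right, 2 pairs) for the 33 tested genes. The vertical ticks are means, red where the gene was called lower and grey where it was not, and the dashed line divides genes from glucose to lactate (above) from other HIF pathway genes (below). In IL-2 the squares of pair 2 lie nearest to 0 for 14 of the 18 genes that fell, and in IL-15 no gene was called.

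The size of the differences varied over the pairs. In IL-2, with values below log2 5 held at log2 5, the median difference of the genes from glucose to lactate was -1.12, -0.36 and -0.67 in pairs 1, 2 and 3, and that of the other HIF pathway genes -1.46, -1.94 and -2.67, while all tested genes had medians of 0.27, 0.0 and 0.02. In each pair the second class had the lower median. Pair 2 held the smallest difference for 14 of the 18 genes that fell (77.8%), against 34.2% of the 843 other genes that fell. *Hif1a* was an exception, with its widest difference in pair 2. Since the values of a pair mirror each other, it cannot be told whether WT array 2 was low or KO array 2 was high. No test was made of the classes against each other, since genes are not replicates.

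**Figure D3:**
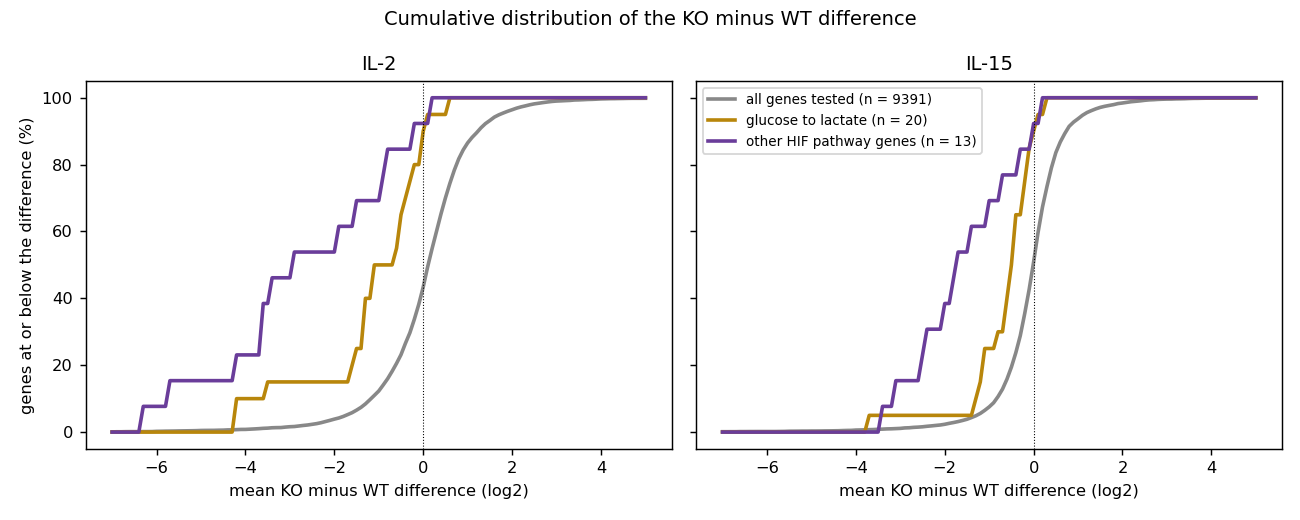
Share of genes (vertical axis, percent) whose mean log2 difference of KO from WT is at or below the value on the horizontal axis, in IL-2 (left) and IL-15 (right), for all 9391 tested genes (grey), 20 genes from glucose to lactate (brown) and 13 other HIF pathway genes (purple). The brown and purple lines lie left of the grey line over most of the range, with values below log2 5 plotted as deposited although they are limits. With means below log2 5 held there, the medians were -0.66 and -1.96 beside 0.09 in IL-2 and -0.43 and -1.49 beside 0.0 in IL-15.

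The same comparison in IL-15 rests on 2 pairs. Its limma p-values use a spread pooled over both cytokines, which comes mostly from the IL-2 pairs. They do not measure the spread of the 2 IL-15 pairs, which the printed SD gives. 0 of 33 genes were called with limma in either direction (background 0.841% lower and 0.458% higher). At an unadjusted p under 0.05 there were 13 genes lower and 0 higher, where 7.71% of all tested genes were lower and 5.80% higher. The mean difference was below 0 for 30 of 33 genes, where 50.89% of all tested genes were at or below 0. The 30 include *Slc2a1* and *Kdm3a* near 0 (-0.053 and -0.055) and *Slc16a3*, below log2 5 in both genotypes. With means below log2 5 held there, the median was -0.43 for the genes from glucose to lactate and -1.49 for the other HIF pathway genes. For all tested genes it was 0.0. KO arrays lay wholly below WT arrays for 23 of 33 genes (69.7%, background 32.9%) and wholly above for 1, *Pfkm* (background 31.7%).

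The widest difference in IL-15 was that of the aldolase *Aldoc*, with 12.93 and 12.61 in WT and 8.83 and 9.15 in KO arrays, a difference of -3.78 ± 0.46 (13.7-fold, adjusted p = 0.0717). *Egln3* read 10.09 and 8.72 against 5.26 and 6.63 (-3.46 ± 1.93, 11.0-fold, adjusted p = 0.206), and *Vegfa* 6.97 and 5.99 against 2.83 and 3.81 (-3.16 ± 1.38, at least 2.79-fold, adjusted p = 0.0717). In these 3 genes the arrays of the genotypes did not overlap.

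*Bnip3* read 11.44 and 10.93 in WT and 8.42 and 8.93 in KO arrays (-2.51 ± 0.72, adjusted p = 0.0983). *Pdk1* read 14.21 and 14.13 against 12.27 and 12.35 (-1.86 ± 0.11, adjusted p = 0.0852), and *Hif1a* 13.98 and 14.14 against 12.41 and 12.25 (-1.73 ± 0.23, adjusted p = 0.103). For *Hif1a* and *Pdk1* the size was near that in IL-2. *Ndrg1* (12.72 and 12.19 against 9.71 and 10.24) and *Ankrd37* (6.76 and 8.18 against 6.12 and 4.70) gave -2.48 ± 0.75 and -2.06 ± 2.01, with adjusted p of 0.264 and 0.34.

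Glycolytic genes that fell in IL-2 split in IL-15. *Slc2a3* (13.27 and 13.40 against 12.13 and 12.00), *Pfkl* (10.08 and 10.02 against 8.90 and 8.96) and *Aldoa* (15.02 and 14.58 against 13.44 and 13.88) had differences of -1.27 ± 0.18, -1.12 ± 0.08 and -1.14 ± 0.63. *Slc2a1* read 11.90 and 12.24 in WT and 12.19 and 11.85 in KO arrays, which overlapped, with a difference of -0.05 ± 0.48. *Hk2* (7.62 and 8.18 against 7.69 and 7.12) gave -0.49 ± 0.80 and *Pfkp* (13.00 and 13.08 against 12.66 and 12.58) -0.42 ± 0.13. *Slc16a3* was below log2 5 in WT (3.91 and 3.61) and KO (2.98 and 3.28) NKC alike, so no fold is given.

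The rest of the genes that fell in IL-2 were *P4ha1*, with 9.39 and 9.19 in WT and 7.69 and 7.90 in KO arrays (-1.49 ± 0.29, adjusted p = 0.193), *P4ha2* with 5.77 and 5.07 against 4.33 and 5.03 (-0.74 ± 0.98), and *Eno2* with 5.75 and 4.46 against 3.14 and 4.43 (-1.32 ± 1.83). Of the 18 genes, 18 had a mean difference below 0 in IL-15 (86.5% of the 843 other genes that fell) and 16 were below 0 in both pairs (88.9%, against 72.7%). The 18 include *Slc2a1* at -0.053, whose other probe sets gave 0.004 and 0.159. Both counts include *Slc16a3*, which lay below log2 5 in WT and KO NKC in IL-15. For these genes no fall was measured in IL-15. Across the 33 genes the differences in IL-15 and IL-2 had Pearson's r = 0.832 and Spearman's rho = 0.797, and across all 9391 genes 0.651 and 0.545, as descriptions over deposited values of genes, which are not independent and share their arrays and normalization.

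Whether the KO effect differed between the cytokines was asked with the interaction term. 0 of 33 genes passed, and 0.0% of all tested genes did, with limma. At an unadjusted p under 0.05, 6 of 33 genes had a higher (less negative) effect in IL-15 and 0 a lower one, where the shares of all tested genes were 4.62% and 7.16%. They were *P4ha1* (2.16), *Bnip3* (1.72), *Slc2a1* (1.34) and *Pfkp* (0.94), and *Slc16a3* and *Vegfa*, with limma adjusted p of 0.268 to 0.414. The last pair lay below log2 5 in 3 and 2 of the 4 groups, so that the size of their term is not known. A difference of the KO effect between IL-2 and IL-15 was therefore not shown for any of the genes.

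IL-15 was set against IL-2 within each genotype with 4 group means. The cytokine cannot be told apart from the sex of the mice or from anything else that separated these cultures: the female transcript *Xist* lay at log2 14.28 to 14.66 on all IL-15 arrays and at 4.64 to 5.37 on all IL-2 arrays, and the Y-linked *Eif2s3y* at 2.35 to 2.44 against 7.31 to 9.17. The removal of pair differences also makes the spread within groups, and hence these p-values, too small by an unknown amount.

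**Figure D4:**
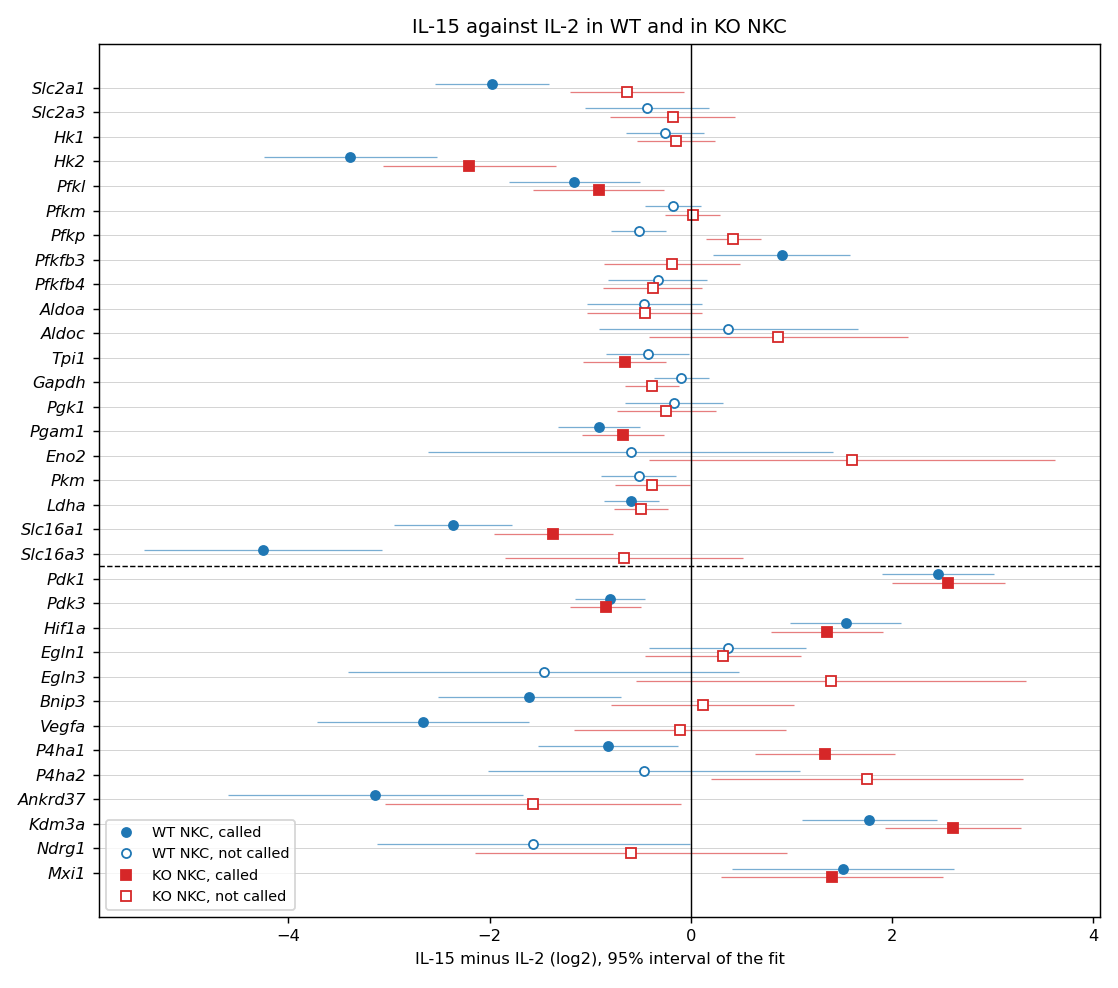
Difference of IL-15 minus IL-2 on the log2 scale (horizontal axis) with the 95% interval of the fit for the 33 tested genes, in WT NKC (blue circles) and KO NKC (red squares), filled where called. The dashed line divides genes from glucose to lactate (above) from other HIF pathway genes (below). *Pdk1*, *Hif1a*, *Kdm3a* and *Mxi1* lie right of 0 in both genotypes, and *Slc16a3*, *Hk2*, *Slc16a1* and *Slc2a1* lie left of it.

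In WT NKC 12 of 33 genes were lower and 5 higher in IL-15 (background 18.7% lower and 29.4% higher). With quantile normalization, which moved the median of all genes in this comparison from 0.18 to -0.05, the split was 15 lower and 3 higher. Among the genes of entry and exit, 4 were lower in IL-15: *Hk2* by -3.38 (10.4-fold, adjusted p = 0.000199), *Slc16a3* by -4.25 (at least 8.05-fold, adjusted p = 0.000305), *Slc16a1* by -2.37 (5.15-fold, adjusted p = 0.000177) and *Slc2a1* by -1.98 (3.94-fold, adjusted p = 0.000348). *Slc2a3* (-0.44, adjusted p = 0.202) and *Hk1* (-0.26, adjusted p = 0.223) were not called. The other called genes of the path were *Pfkl*, *Pgam1* and *Ldha*, lower by 1.16, 0.91 and 0.59 on the log2 scale, and *Pfkfb3*, higher by 0.90, whose call was lost with quantile normalization (adjusted p = 0.116).

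HIF pathway genes went both ways in WT NKC. *Pdk1* was 5.48-fold, *Kdm3a* 3.42-fold, *Hif1a* 2.91-fold and *Mxi1* 2.85-fold higher in IL-15 (adjusted p = 0.000118, 0.00136, 0.00105 and 0.028). *Ankrd37* was 8.81-fold, *Vegfa* 6.32-fold, *Bnip3* 3.05-fold, *P4ha1* 1.77-fold and *Pdk3* 1.75-fold lower (adjusted p = 0.00377, 0.00168, 0.00924, 0.0483 and 0.00274). *Mxi1* lost its call with quantile normalization, in WT (adjusted p = 0.0632) and in KO NKC (0.0705).

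In KO NKC 6 of 33 genes were lower and 5 higher in IL-15 (background 22.5% and 23.6%), and with quantile normalization 8 and 4. *Hk2* was 4.60-fold and *Slc16a1* 2.58-fold lower, followed by *Pfkl*, *Pdk3*, *Pgam1* and *Tpi1* at 1.58-fold to 1.89-fold. *Kdm3a* was 6.07-fold, *Pdk1* 5.89-fold, *Mxi1* 2.64-fold, *Hif1a* 2.55-fold and *P4ha1* 2.52-fold higher. *P4ha1* was thus called in opposite directions in WT and KO NKC, but with the mean over its probe sets the difference was -0.21 in WT (adjusted p = 0.618) and 0.91 in KO (adjusted p = 0.0532). *Pfkp* differed by -0.52 in WT and 0.42 in KO, short of 1.5-fold. With the mean over its probe sets it was called both ways, by -0.81 and 1.08 (limma adjusted p = 0.0112 and 0.00292).

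The 4 groups fell into different orders by gene. *Hif1a* had means of 14.06 in WT IL-15, 12.52 in WT IL-2, 12.33 in KO IL-15 and 10.98 in KO IL-2, and the middle groups overlapped between arrays. *Pdk1* ran 14.17 in WT IL-15, 12.31 in KO IL-15, 11.72 in WT IL-2 and 9.75 in KO IL-2. *Vegfa* ran 9.14 in WT IL-2 and 6.48 in WT IL-15, with KO NKC at 3.43 and 3.32, whose arrays overlapped. *Hk2* ran 11.28 and 9.61 in WT and KO IL-2 and 7.90 and 7.41 in WT and KO IL-15, where the arrays of the last groups overlapped.

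**Figure D5:**
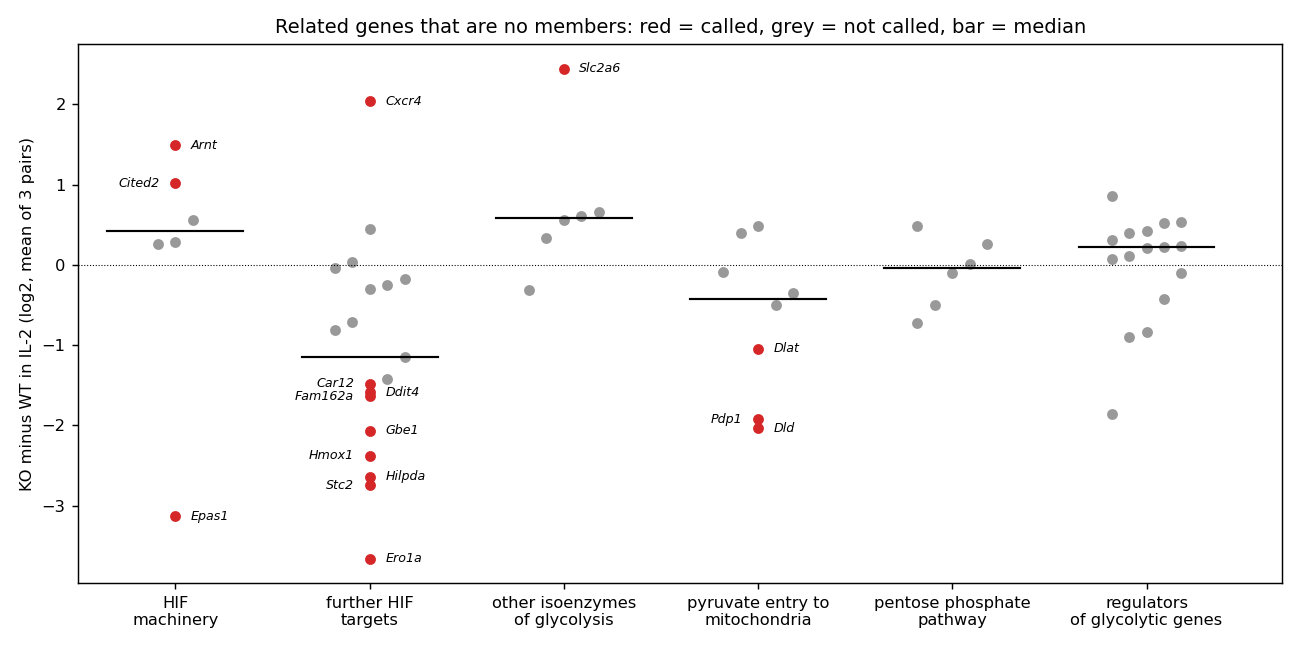
Log2 difference of KO from WT in IL-2 (vertical axis, mean of 3 pairs) of tested genes in 6 related lists (horizontal axis), with called genes in red and named, other genes in grey and the list median as a bar. Further HIF targets hold 8 of the 12 falls, and no pentose phosphate or regulator gene is red.

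Genes around the path were read from lists chosen by function, with earlier results of these data known. Of 19 tested further HIF targets, 8 fell and 1 rose in KO NKC in IL-2, with a median of -1.15. For this and the other lists the background was 9.17% lower and 10.5% higher, with a median of 0.11 over all tested genes. *Ero1a*, an oxidase of protein folding, fell by 3.66 (SD 0.39, 12.7-fold, adjusted p = 0.00293), the lipid droplet gene *Hilpda* by 2.64 (SD 0.36), the hormone *Stc2* by 2.75 (SD 1.60) and haem oxygenase *Hmox1* by 2.38 (SD 0.60). The glycogen branching enzyme *Gbe1*, *Fam162a*, the mTOR inhibitor *Ddit4* and carbonic anhydrase *Car12* fell by 2.07, 1.64, 1.59 and 1.48. The chemokine receptor *Cxcr4* rose by 2.04 ± 1.59 (at least 2.60-fold, adjusted p = 0.0439), from 4.34 in WT to 6.38 in KO NKC.

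Of 6 tested genes of the HIF machinery, another alpha subunit, *Epas1*, fell by 3.13 (SD 0.99, 8.76-fold, adjusted p = 0.00933), while *Arnt* rose by 1.49 ± 0.56 (2.81-fold, adjusted p = 0.0166) and *Cited2*, which competes with HIF for coactivators, by 1.01 ± 0.40 (2.02-fold, adjusted p = 0.039). *Hif3a*, a further alpha subunit, stayed below log2 5 on all arrays and was not tested. Of 8 tested genes that bring pyruvate into mitochondria 3 fell, the pyruvate dehydrogenase subunits *Dlat* and *Dld* by 1.05 and 2.04 and the phosphatase *Pdp1* by 1.92 (SD 0.29, 1.27 and 0.13). Of 6 other isoenzymes of glycolysis, the transporter *Slc2a6* rose by 2.45 ± 0.67 (5.46-fold, adjusted p = 0.00874) and none fell.

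0 of 6 tested genes of the pentose phosphate pathway and 0 of 16 tested regulators of glycolytic genes were called in IL-2 with limma (0 and 4 at an unadjusted p under 0.05, where 36.3% of all tested genes were). *Myc*, the general activator of glycolytic genes in lymphocytes, had a difference of 0.86 (adjusted p = 0.0802). In IL-15 none of the genes in these 6 lists was called, where 8 of 61 (13.1%) had an unadjusted p under 0.05, as had 13.5% of all tested genes. Markers of macrophages and dendritic cells moved in both directions in IL-2: *Cd14* was lower, with a mean of 7.68 in WT against 3.79 in KO arrays, and the antigen presentation genes *Cd74* and *H2-Aa* were higher, with 3.12 against 7.68 and 4.46 against 7.10. Fewer cells of a type and less RNA per cell cannot be told apart in such bulk samples, and the part of these cells in the results on *Vegfa*, *Hmox1* and the other genes was not tested.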

How the data were processed

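The deposited table holds log2 signals of 45101 probe sets on 10 arrays, which the authors made with GC-RMA in Partek (versions not given in the sources used here). It was used without further scaling. Array medians were 3.20 to 3.37, and arrays of a group correlated at r = 0.972 to 0.984 across tested genes. The table holds 117 values above log2 16, up to 19.73, and 10 below 0. For every probe set the sum of the WT and KO arrays with the same number was the same across the numbers of a cytokine (largest difference 0.00014 in IL-2 and 0.00013 in IL-15), whereas crossed sums had median differences of 0.193 and 0.170. The labels do not say what a number marks, so the pairing comes from these sums.

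Probe sets were named by the platform annotation: 34958 had 1 gene symbol, 932 several and 9211 none listed. A gene took the probe set of highest mean, and was tested where it reached log2 5 in at least 2 arrays. The genes and lists were chosen with earlier results of these data known. The 10 arrays entered linear models of limma 3.58.1 (R 4.3.3), with the pair as a block (3 residual degrees of freedom) for KO against WT and with 4 group means (6) for IL-15 against IL-2. Every listed gene is accounted for, and genes called in KO against WT are given with every array. The fits were tested on simulated data with pair means removed. The alternatives were another scaling, no or a stricter filter on low values, the mean over probe sets, no block, unadjusted p, the IL-2 arrays alone, and each array left out in turn. Promoter windows were taken from RefSeq (GRCm38.p6).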

Additional observations from a re-analysis of the deposited data

How the results depend on the processing

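No called difference of a gene changed sign under any alternative that was run. In IL-2 the count of 18 genes lower and 0 higher stayed between 15 and 21 with another scaling, a filter at log2 6, the mean over probe sets, unadjusted p, the IL-2 arrays alone and no block. It was 5 without a filter on low values, where 18194 genes were tested: *Bnip3*, *P4ha1*, *Pdk1*, *Pfkp* and *Vegfa*. With each array left out in turn it was 8 to 15. Leaving out WT or KO array 1 in IL-2 gave the 8, namely *Aldoc*, *Bnip3*, *Egln3*, *Hif1a*, *P4ha1*, *Pdk1*, *Slc16a3* and *Vegfa*. For KO against WT in IL-2, leaving out either array of an IL-2 pair gave the same fit. Leaving out any IL-15 array gave the fit of the IL-2 arrays alone, so these fits repeat each other. Of the 8 genes, 7 were called whichever array was left out. *Hif1a* lost its call without an array of pair 2 or pair 3 in IL-2, and *Aldoa* lost its call in every such fit. *Slc2a1*, *Slc2a3*, *Eno2*, *Ndrg1* and *P4ha2* lost theirs without an array of pair 1 or pair 3 in IL-2, and *Ankrd37* without one of pair 1. 

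Without the replicate block, which the removal of pair differences makes too lenient, 21 genes were lower in IL-2, 11 in IL-15 in place of 0, and 5 had a smaller fall in IL-15 in the interaction in place of 0. With unadjusted p the last counts were 13 and 6. With each array left out in turn they were 0 to 1 and 0, the 1 being *Aldoc* in IL-15 without WT or KO array 2 in IL-2 (adjusted p = 0.0196). For IL-15 against IL-2, the 17 called genes in WT became 12 to 18 and the 11 in KO 8 to 13.

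Over all tested genes, 1851 were called in IL-2, 3803 without the block, 842 without a filter and 3391 with unadjusted p. In IL-15 the counts were 122, 1321, 0 and 1269, and 44 with the mean over probe sets, and in the interaction 0, 1157, 0 and 1106, and 4 with a filter at log2 6. Quantile normalization moved the split of higher and lower genes from 2758 and 1754 to 2147 and 2457 for IL-15 against IL-2 in WT, and the median of the interaction from -0.14 to -0.03. Dim genes (*Eno2*, *P4ha2*, *Slc16a3*) have lower limits in place of folds.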
